A study of Homo sapiens with 6 samples.

Results

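The BCL2 family genes examined here were the 10 rows of the count table named BCL2, BCL2L1, BCL2L2, MCL1, BAK1, BAD, BID, BIK, BCL2L11 and PMAIP1, out of 21494 genes in all. They were chosen by gene name for their known role in apoptosis, with earlier results of these data known. All 10 had more than 3 counts in every sample and all 10 passed the filter on low counts, which left 16756 genes for the test.

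RNA-seq was performed on 6 samples of cells labelled as G361, a human melanoma line. Of these, 3 carried a control shRNA and the genotype label WT (Control sh), and 3 carried a stably expressed shRNA against the coding region of VprBP, whose gene is DCAF1, with the genotype label DCAF1 Knockdown (VprBP sh). The methods give a single shRNA sequence, delivered by lentivirus with puromycin selection, and no age, drug or time course distinguishes the groups. No source says whether the replicates were separate cultures, so p-values measure the spread between these samples, which may be technical.

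Proteins of the BCL2 family decide whether the outer mitochondrial membrane is opened, which releases cytochrome c and starts the caspase cascade. BCL2, BCL2L1 (BCL-XL), BCL2L2 (BCL-W) and MCL1 block this step, BAK1 forms the pore, and the BH3-only proteins BID, BCL2L11 (BIM), PMAIP1 (NOXA), BAD and BIK either activate the pore former or occupy the groove of the anti-apoptotic members. In melanocytes and melanoma, BCL2 is known as a target of the lineage factor MITF, and MCL1 and BCL-XL are known survival factors.

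All 10 coding sequences hold a BH3 core, the stretch through which family members bind each other. It was located in the MANE Select transcripts of GENCODE 44 as a leucine or methionine codon, any 3 codons, a codon for glycine (or, where none matched, serine or alanine) and an aspartate codon, and each transcript gave 1 such match. The serine variant occurred in BAD and a methionine start in BCL2L2. The pattern planned first had leucine only and took glycine, alanine or serine alike. It gave 0 matches in BCL2L2 and 2 in BID, so 1 match in each transcript follows in part from the rule. The coding stretches of 42 bases are shown for the 4 members that changed by more than 2-fold and for MCL1, which had the highest level per length in VprBP sh, and BAD, which had the highest in Control sh, with the 6 core codons in capitals. They lie at chr18:63318349-63318390 on the minus strand (BCL2, exon 2), chr20:31721922-31721963 on the minus strand (BCL2L1, exon 2), chr2:111150091-111150132 on the plus strand (BCL2L11, exon 3), chr18:59902661-59902702 on the plus strand (PMAIP1, exon 2), chr1:150578865-150578906 on the minus strand (MCL1, exon 1) and chr11:64271622-64271663 on the minus strand (BAD, exon 3) of hg38.
BCL2: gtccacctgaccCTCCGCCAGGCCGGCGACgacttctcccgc
BCL2L1: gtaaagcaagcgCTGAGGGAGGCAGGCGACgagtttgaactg
BCL2L11: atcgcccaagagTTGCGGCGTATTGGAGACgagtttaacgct
PMAIP1: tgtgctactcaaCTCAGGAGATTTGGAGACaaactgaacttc
MCL1: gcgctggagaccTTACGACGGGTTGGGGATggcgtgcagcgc
BAD: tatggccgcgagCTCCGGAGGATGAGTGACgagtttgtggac

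Total counts ran from 18195926 to 26883925 per sample and overlapped between groups. The mitochondrial share of counts was 1.96% to 1.98% for Control sh, against 4.10% to 4.48% for VprBP sh. In each group, replicates 2 and 3 were closer to each other than to replicate 1, and each was kept as a replicate because they still differed by more than counting noise. DCAF1, the targeted gene, had 797, 971 and 838 normalized counts in the Control sh libraries and 760, 507 and 481 in the VprBP sh libraries, a log2 fold change of -0.58 (SE 0.17, edgeR adjusted p = 0.0125). With library size as the only scaling the change was -0.37 (edgeR adjusted p = 0.0851). G361 is the cell line given by the labels, whereas their source field gives LD611, a name in use for a bladder cancer line. Of 12 melanocyte markers listed for this check, 7 were in the table and 4 were tested, with log2 fold changes from -0.54 to 0.84 and a summed level of 678 to 705 normalized counts across Control sh and 619 to 669 across VprBP sh. MLANA had 1 to 5 counts and TYRP1 0 to 4 counts in any sample. TYR, DCT, SOX10, SLC45A2 and OCA2 had no row under these names in the count table, whose genes have sums of at least 10. Of 15 urothelial markers, 13 were in the table and 12 were tested, of which 4 were called up and 5 down. The summed level of the 13 was 159120 to 163334 normalized counts across Control sh and 36348 to 42135 across VprBP sh. In Control sh most of this sum was KRT5 (64989 on average), KRT17 (41743) and KRT7 (35085). In VprBP sh these 3 keratins averaged 3488, 395 and 21576. UPK1B averaged 650 normalized counts in Control sh and had 0 counts in all 3 VprBP sh samples. In the opposite direction, GATA3 had 0 to 7 counts in Control sh and averaged 1529 normalized counts in VprBP sh. TP63 went from 8929 to 9.44 normalized counts on average. These differences in markers and in mitochondrial counts moved with the groups, as did every change described for the BCL2 family, and their part in those changes was not tested. In such bulk samples, fewer cells of a type and less RNA per cell cannot be told apart.

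Setting VprBP sh against Control sh asks which genes differ in cells with the VprBP shRNA, and the BCL2 family was divided. As the markers and the source label given above leave the identity of the cells in each group unsettled, a difference between the cells themselves and an effect of the shRNA cannot be told apart for any fold change below. BCL2 and BCL2L11 rose by more than 2-fold, PMAIP1 and BCL2L1 fell by more than 2-fold, and MCL1 and BID rose while BAD, BIK and BAK1 fell by smaller amounts. BCL2L2 had an adjusted p above 0.05. Of the 10 members, 4 were called, that is they had an adjusted p under 0.05 and a fold change over 2 in edgeR's quasi-likelihood test, against 46.4% of all genes tested. The 2 members called up stood beside 24.5% of all genes and the 2 called down beside 22.0%. At any fold change, 9 of the 10 members passed the adjusted p, 4 of them higher and 5 lower, against 76.4% of all genes. The median absolute log2 fold change was 0.91 for the members and 0.92 for all genes tested, so the share called and the size of change in the family were near those of the transcriptome. For 9 members the 3 values of each group lay wholly apart from the other group, as for 79.5% of all genes, and for each of these 9 an exact two-sided permutation test gave p = 0.1, below which a test of 3 against 3 cannot go.

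**Figure D1:**
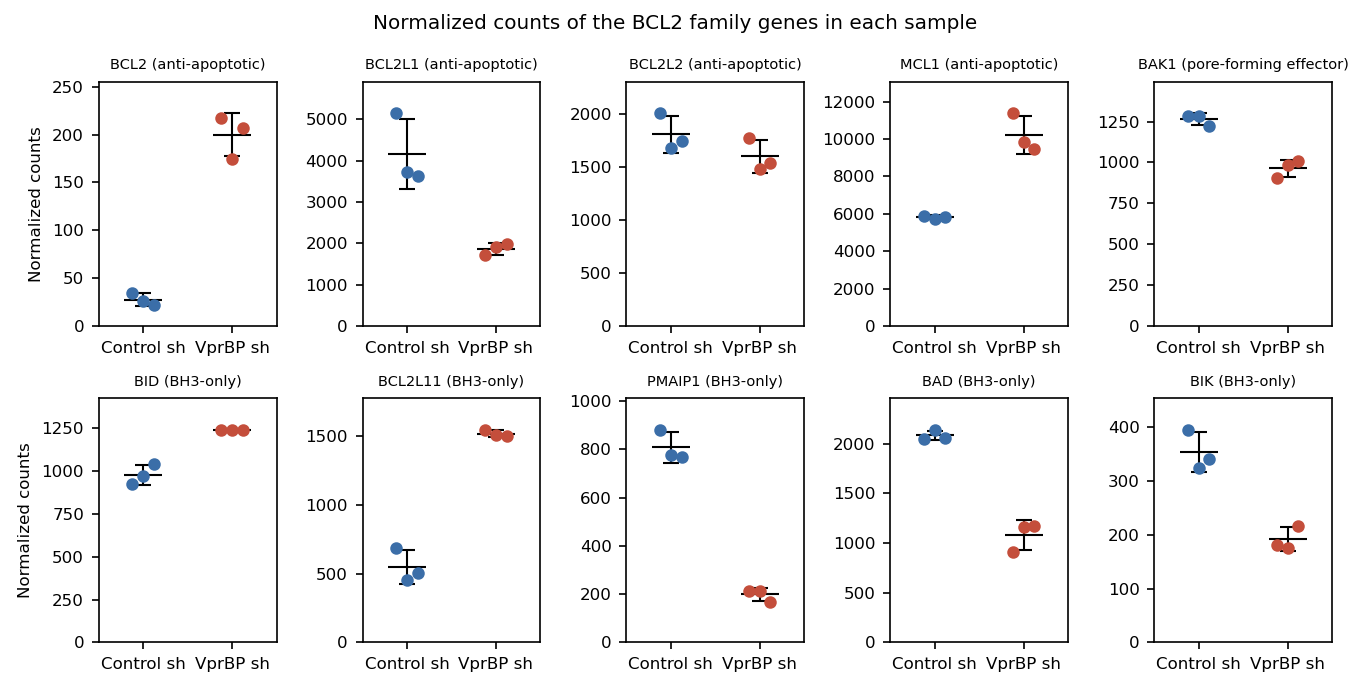
Normalized counts of each BCL2 family gene (vertical axes, from 0) in the 3 Control sh and 3 VprBP sh samples, ordered by replicate number, with mean and SD as bars. The groups were apart for every gene but BCL2L2, whose values ran from 1677 to 2006 in Control sh and from 1485 to 1775 in VprBP sh.

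Among the anti-apoptotic members, BCL2 had the largest change and the lowest level. BCL2 (ENSG00000171791.14, chromosome 18 from 63123346 to 63320128, minus strand) encodes the founding member of the family. It had 30, 24 and 23 counts in the Control sh libraries and 195, 168 and 270 in the VprBP sh libraries, which after normalization were 34.8, 26.1 and 21.8 against 218, 175 and 207. Every VprBP sh value was thus at least 139.8 normalized counts above the highest Control sh value. The mean went from 27.6 ± 6.6 to 199.8 ± 22.5 (SD, n = 3), a 7.28-fold rise with a log2 fold change of 2.86 (SE 0.22, edgeR adjusted p = 1.81e-06), which lay above 93.0% of all genes tested and ranked 2988 by size. The Control sh counts of 23 to 30 limit the precision of this fold.

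BCL2L1 (ENSG00000171552.14, chromosome 20 from 31664452 to 31723989, minus strand) encodes BCL-XL, which holds BAX and BAK1 in check at the mitochondrion. It had 5147, 3729 and 3638 normalized counts in the Control sh libraries and 1706, 1923 and 1980 in the VprBP sh libraries. Replicate 1 of Control sh was the highest of its group, and all VprBP sh values lay below all Control sh values. The log2 fold change was -1.16 (SE 0.14, edgeR adjusted p = 3.77e-05), a 2.23-fold decrease. It was just under 2-fold without Control sh replicate 1, at -0.98 (edgeR adjusted p = 4.27e-05), and with library size alone, at -0.94 (edgeR adjusted p = 9.54e-05). Gene-level counts do not separate the long from the short isoform of BCL2L1, which have opposite effects on survival. BCL2L1 also shares 1735 exonic bases (41.3%) with the lncRNA gene ABALON on the opposite strand. ABALON had 5.17 and 2.23 normalized counts on average in Control sh and VprBP sh.

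MCL1 (ENSG00000143384.14, chromosome 1 from 150560895 to 150579738, minus strand) encodes a short-lived survival protein that neutralizes BCL2L11 and PMAIP1. It had 5903, 5736 and 5853 normalized counts in the Control sh libraries and 11380, 9821 and 9489 in the VprBP sh libraries. The lowest VprBP sh value was 3585 above the highest Control sh value. The rise was 1.75-fold, a log2 fold change of 0.81 (SE 0.09, edgeR adjusted p = 2.13e-05), and it reached 1.02 only with library size alone among the alternatives tried. MCL1 overlaps ADAMTSL4 on the opposite strand by 43 exonic bases, and ADAMTSL4 went from 7579 to 18.1 normalized counts.

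BCL2L2 (ENSG00000129473.11, chromosome 14 from 23298790 to 23311751, plus strand) encodes BCL-W. Its normalized counts were 2006, 1677 and 1743 in Control sh and 1775, 1485 and 1541 in VprBP sh, and the groups overlapped. The log2 fold change of -0.18 (SE 0.10, edgeR adjusted p = 0.145) became 0.037 with library size alone and -0.30 with DESeq2 (adjusted p = 0.0230), so its direction depends on the scaling. Of its exonic bases, 815 (16.8%) are shared with the read-through gene BCL2L2-PABPN1 on the same strand, which had 113.8 and 225 normalized counts on average in Control sh and VprBP sh, and reads from the shared bases cannot be assigned to either gene with certainty.

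BAK1 (ENSG00000030110.14, chromosome 6 from 33572547 to 33580293, minus strand), the pore-forming member, had 1285, 1284 and 1222 normalized counts in the Control sh libraries and 907, 983 and 1006 in the VprBP sh libraries. The groups did not overlap, and the log2 fold change was -0.39 (SE 0.09, edgeR adjusted p = 0.00241). With library size alone it was -0.18 (edgeR adjusted p = 0.0888). Near-identical pseudogene copies, BAK1P1 and BAK1P2, make the BAK1 counts uncertain, since how reads shared with them were counted is not given in the sources used here.

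The BH3-only members moved in both directions. BCL2L11 (ENSG00000153094.24, chromosome 2 from 111119378 to 111168445, plus strand) encodes BIM, which binds all the anti-apoptotic members and can activate BAK1 directly. It had 691, 455 and 504 normalized counts in the Control sh libraries and 1547, 1507 and 1502 in the VprBP sh libraries. The VprBP sh values were closely spaced and all at least 811 above the Control sh values. The rise was 2.76-fold, with a log2 fold change of 1.47 (SE 0.15, edgeR adjusted p = 1.10e-05). The lncRNA gene MIR4435-2HG on the opposite strand shares 727 exonic bases (10.8%) with BCL2L11 and had the opposite direction, from 1589 to 837 normalized counts. Counting by strand is not given in the sources used here.

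PMAIP1 (ENSG00000141682.12, chromosome 18 from 59899996 to 59904305, plus strand) encodes NOXA, a selective binder of MCL1. It had 881, 776 and 767 normalized counts in the Control sh libraries and 214, 215 and 169 in the VprBP sh libraries, with no overlap. This was the largest decrease in the family, 4.06-fold, with a log2 fold change of -2.02 (SE 0.13, edgeR adjusted p = 5.73e-07), lower than that of all but 13.6% of genes tested.

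BID (ENSG00000015475.19, chromosome 22 from 17734138 to 17774770, minus strand), which links the death receptors to mitochondria after cleavage by caspase 8, had 927, 970 and 1041 normalized counts in the Control sh libraries and 1240, 1241 and 1239 in the VprBP sh libraries. The groups did not overlap, and the log2 fold change was 0.34 (SE 0.09, edgeR adjusted p = 0.00498). Its adjusted p was 0.0763 from edgeR when replicates 2 and 3 of each group were summed into 1 sample.

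BAD (ENSG00000002330.14, chromosome 11 from 64269830 to 64284704, minus strand), which binds BCL2, BCL-XL and BCL-W when it is not phosphorylated, had 2052, 2139 and 2058 normalized counts in the Control sh libraries and 907, 1158 and 1175 in the VprBP sh libraries. Replicate 1 was the lowest of VprBP sh, and the groups lay 876 apart. The log2 fold change of -0.95 (SE 0.11, edgeR adjusted p = 2.96e-05) stayed under 2-fold, and passed it in 5 of the 16 alternatives, TMM (-1.04), DESeq2 (-1.07), the fit without VprBP sh replicate 3 (-1.02) and, by a small margin, the fit without VprBP sh replicate 2 among them. BAD shares 404 exonic bases (23.7%) with GPR137 on the opposite strand, which had 1401 and 1576 normalized counts on average in Control sh and VprBP sh.

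BIK (ENSG00000100290.3, chromosome 22 from 43110750 to 43129712, plus strand), a BH3-only protein of the endoplasmic reticulum, had 395, 325 and 340 normalized counts in the Control sh libraries and 182, 176 and 217 in the VprBP sh libraries. The groups did not overlap. The log2 fold change was -0.88 (SE 0.14, edgeR adjusted p = 0.000295) and just passed 2-fold with DESeq2, alone among the alternatives.

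**Figure D2:**
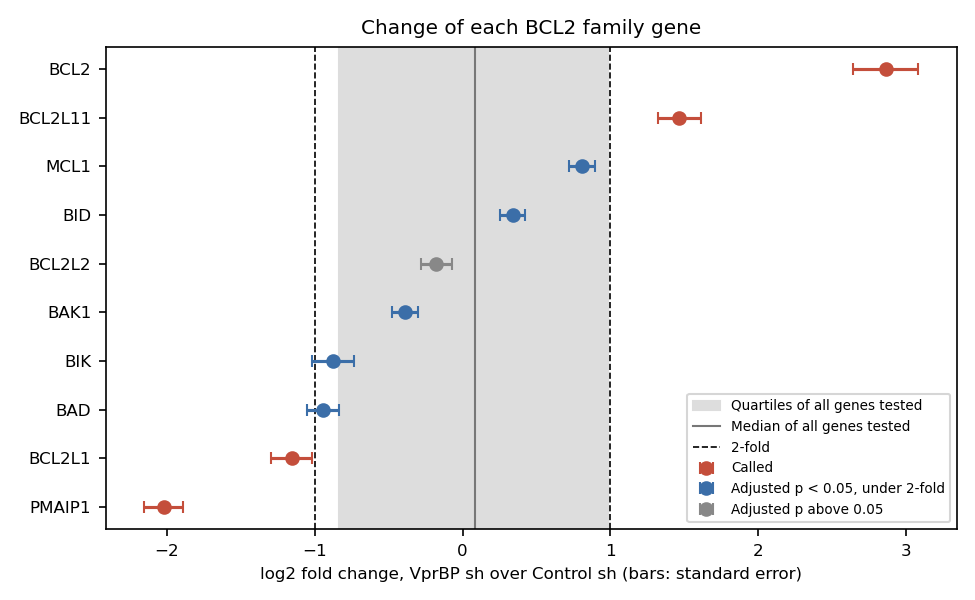
Log2 fold change of VprBP sh over Control sh for each BCL2 family gene (horizontal axis), with standard errors as bars, dashed lines at 2-fold, and a grey band for the quartiles of all genes tested, from -0.83 to 0.99. BCL2 and BCL2L11 lie to the right of the upper dashed line and PMAIP1 and BCL2L1 to the left of the lower one, and the other members lie between them.

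Levels were compared between genes per length, as normalized counts per kilobase of merged exons. In Control sh the order was led by BAD (1220 ± 29, SD, n = 3), BCL2L1 (994 ± 202) and MCL1 (937 ± 14), whose neighbouring values overlapped. BAK1 came next at 571 ± 16, then BCL2L2, BIK and PMAIP1 between 369.6 and 374 with overlapping ranges, BID at 222 ± 13, BCL2L11 at 81.6 ± 18.4 and BCL2 at 2.18 ± 0.52. In VprBP sh, MCL1 led alone at 1644 ± 162, followed by BAD at 632 ± 88. BCL2L1 at 446 ± 34 and BAK1 at 436 ± 23 overlapped at these lengths, and BCL2L2 (331 ± 32), BID (281 ± 0.23) and BCL2L11 (225 ± 4) came below them. BIK at 201 ± 23 overlapped BCL2L11, while PMAIP1 at 91.3 ± 12 and BCL2 at 15.8 ± 1.8 stood last. Despite its rise, BCL2 was thus the least abundant member per length in both groups.

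Shares within a sample do not depend on the scaling between samples. Of the summed per-kilobase level of the 4 anti-apoptotic members, MCL1 made up 36.6%, 42.7% and 43.4% in Control sh and 69.8%, 67.0% and 65.4% in VprBP sh. The share of BCL2L1 was 42.8% ± 3.9 in Control sh and 18.4% ± 2.5 in VprBP sh, without overlap. The ratio of MCL1 to BCL2L1 was 0.966 ± 0.168 (SD, n = 3) in Control sh, with values on both sides of 1, and 3.73 ± 0.68 in VprBP sh. BCL2L2 contributed 16.2% ± 0.3 and 13.6% ± 0.5, and BCL2 0.0940% ± 0.0134 and 0.650% ± 0.059.

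The summed level of the 4 anti-apoptotic members per kilobase overlapped between groups, at 2307 ± 247 in Control sh and 2436 ± 159 in VprBP sh. That of the 5 BH3-only members was 2264 ± 59 in Control sh and 1431 ± 88 in VprBP sh, without overlap. The ratio of BH3-only to anti-apoptotic transcripts was 0.900, 1.04 and 1.03 in Control sh and 0.508, 0.621 and 0.642 in VprBP sh, and the groups did not overlap. BAD remained the largest part of the BH3-only sum, at 51.5% to 56.0% of it for Control sh and 39.9% to 46.3% for VprBP sh. PMAIP1 made up 16.3% ± 0.8 in Control sh and 6.42% ± 1.13 in VprBP sh, whereas BCL2L11 made up 3.59% ± 0.71 and 15.8% ± 1.3, and the ratio of BCL2L11 to PMAIP1 was 0.219 ± 0.032 and 2.50 ± 0.33. These are transcript levels, and protein levels, which for MCL1, BCL2L11 and PMAIP1 also depend on degradation, were not measured in these samples.

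**Figure D3:**
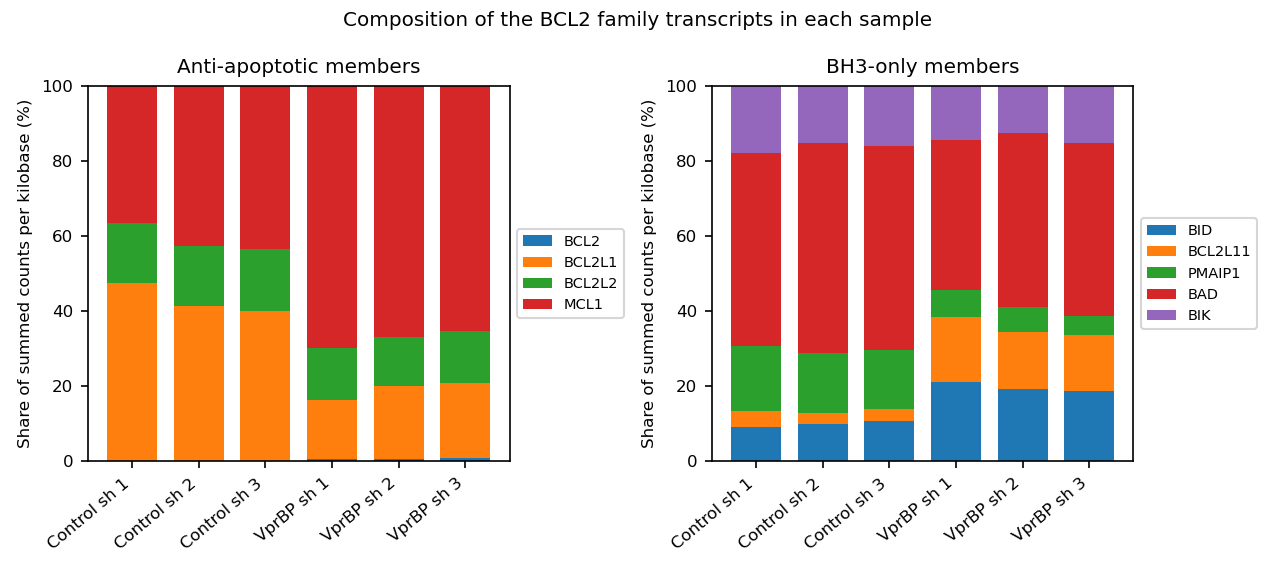
Stacked shares (vertical axis, percent of summed normalized counts per kilobase) of the 4 anti-apoptotic and the 5 BH3-only members in each of the 6 samples. MCL1 takes 65.4% to 69.8% of the anti-apoptotic bar in VprBP sh against 36.6% to 43.4% in Control sh, and BCL2, under 1% in every sample, is barely visible at the base.

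The other genes of the pathway, taken from 7 fixed lists, comprised 63 genes, of which 58 were tested. Of these, 11 were called up and 14 down, or 43.1%, beside 46.4% of all genes tested. The median log2 fold change was -0.06 over these 58 genes, -0.28 over the 10 members and 0.08 over all genes.

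Of 8 tested further BCL2 family genes, 0 were called up and 1 down in edgeR, with a median of -0.17. At an unadjusted p under 0.05, 2 were higher and 2 lower, and DESeq2 called 0 up. The count called down was 2 without Control sh replicate 2 or without any VprBP sh replicate. The called gene was HRK, a BH3-only gene, which went from 133 ± 24 to 31.7 ± 15.8 normalized counts (SD, n = 3), or -2.02 as log2 fold change (edgeR adjusted p = 0.000337). BAX, the pore former that acts beside BAK1, and BBC3, the BH3-only gene PUMA, were chosen after their values were seen. BAX had 1524 ± 259 and 1024 ± 124 normalized counts (log2 fold change -0.57, adjusted p = 0.00438 from edgeR), and BBC3 had 176 ± 51 and 179.8 ± 55.5 (0.043, adjusted p = 0.892 from edgeR).

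Downstream of the mitochondrion, 4 of 9 genes of the apoptosome and caspase list were called up and 1 down, with a median of 0.79. CASP10 (log2 fold change 1.95) and CASP8 (1.43), initiator caspases of the death receptors, and CASP2 (1.17) rose. Without Control sh replicate 3, edgeR called 0 genes of this list down.

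Among 7 tested inhibitors of apoptosis and their antagonists, 1 was called up and 2 down, with a median of 0.36, and 2 were called up without Control sh replicate 1. BIRC3 and BIRC2, the ubiquitin ligases cIAP2 and cIAP1, fell from 18521 ± 1864 to 160.3 ± 10.2 and from 27523 ± 693 to 1192 ± 61 normalized counts (SD, n = 3), log2 fold changes of -6.85 and -4.53. XIAP, the direct caspase inhibitor, rose from 1208 ± 138 to 2877 ± 317, a log2 fold change of 1.25.

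In the death receptor arm, 9 of 10 tested genes were called, 3 up and 6 down, with a median of -1.74. TNFRSF10D, a decoy receptor for TRAIL, had 1129, 1204 and 1481 counts in Control sh and 0 in every VprBP sh sample, at least 459-fold lower against a floor of 3 counts per sample. FAS (-3.38), the TRAIL receptor TNFRSF10B (-2.67) and the adaptor FADD (-2.30) also fell. CFLAR, which encodes the caspase 8 inhibitor FLIP, rose by a log2 fold change of 1.86, the TRAIL gene TNFSF10 by 1.31 and RIPK1 by 1.10. BID, which carries the signal of this arm to mitochondria, changed by the 0.34 given above.

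In the list of mitochondrial membrane partners and late effectors, 1 of 7 genes was called, AIFM1, an oxidoreductase that can leave mitochondria and enter the nucleus, which rose by 1.96 on the log2 scale. Of 6 genes acting on the stability of family proteins, 0 were called up and 2 down in edgeR. At an unadjusted p under 0.05, 0 were higher, and DESeq2 called 0 up. TRIM17, a ubiquitin ligase reported for MCL1, fell from 387 ± 8 to 6.74 ± 3.28 normalized counts (SD, n = 3), and USP9X, which removes ubiquitin from MCL1, fell by 1.09 on the log2 scale. Without Control sh replicate 1, USP9X was at -0.96 and 1 gene was called down.

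Of 11 transcription factors known to act on BCL2 family genes, 2 were called up and 2 down, with a median of 0.043. The stress factor ATF4, which can induce PMAIP1, rose by 2.12 on the log2 scale, whereas FOXO1 (-2.79), which can induce BCL2L11, and TP73 (-1.41) fell. MITF, known to drive BCL2 in the melanocyte lineage, had 162, 154 and 170 counts in the Control sh libraries and 238, 197 and 312 in the VprBP sh libraries, a log2 fold change of 0.46 (edgeR adjusted p = 0.0185).

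**Figure D4:**
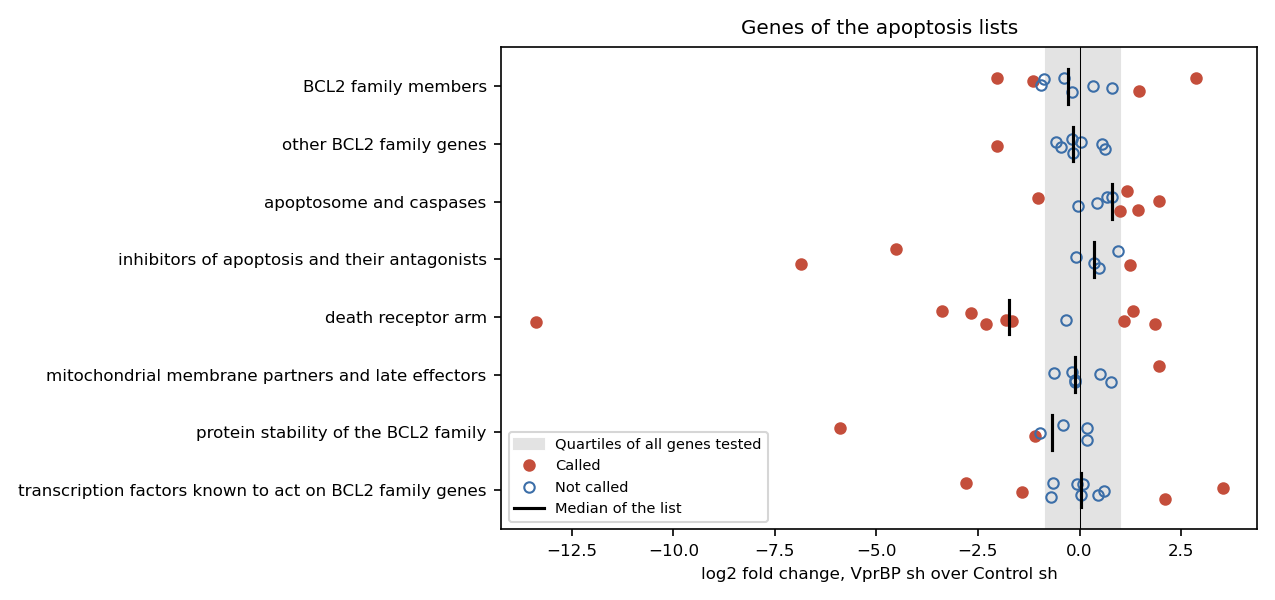
Log2 fold change of VprBP sh over Control sh (horizontal axis) for each tested gene of the BCL2 family members and the 7 other lists, filled where called, with the median of each list as a bar and the quartiles of all genes tested as a grey band. The death receptor arm has its median at -1.74, left of the band, and the member list at -0.28, within it; the point at -13.4 is TNFRSF10D, whose fitted value depends on the prior count.

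The promoter windows of RefSeq (300 bases around the start, GRCh38.p14) gave an entry for 7 of the 10 members, all but BCL2L2, MCL1 and BIK. Those of BCL2 and PMAIP1 are shown because these genes changed most in each direction and lie 3.22 Mb apart on chromosome 18. Motifs were searched on both strands and matches are in capitals. The E-box CACGTG is held by 7.26% of the 35116 promoter entries, the related E-box CATGTG by 11.1%, the GC box GGGCGG by 45.0%, the TATA motif TATAAA by 11.5% and the cyclic AMP response element TGACGTCA by 1.85%. The PMAIP1 window (chr18:59899746-59900045, plus strand) had 4 matches, all to the GC box on either strand, together with 42 CpG dinucleotides and 71.3% GC. The BCL2 window (chr18:63319720-63320019, minus strand) had no match, 31 CpG dinucleotides and 70.7% GC. The median over all entries was 14 CpG dinucleotides and 58.7% GC.
BCL2: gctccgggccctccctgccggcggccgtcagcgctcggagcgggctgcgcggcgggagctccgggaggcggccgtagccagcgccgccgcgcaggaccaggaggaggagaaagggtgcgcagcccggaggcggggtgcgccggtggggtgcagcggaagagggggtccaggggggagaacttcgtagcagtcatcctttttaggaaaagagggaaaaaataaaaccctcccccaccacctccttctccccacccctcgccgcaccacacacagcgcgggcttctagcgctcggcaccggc
PMAIP1: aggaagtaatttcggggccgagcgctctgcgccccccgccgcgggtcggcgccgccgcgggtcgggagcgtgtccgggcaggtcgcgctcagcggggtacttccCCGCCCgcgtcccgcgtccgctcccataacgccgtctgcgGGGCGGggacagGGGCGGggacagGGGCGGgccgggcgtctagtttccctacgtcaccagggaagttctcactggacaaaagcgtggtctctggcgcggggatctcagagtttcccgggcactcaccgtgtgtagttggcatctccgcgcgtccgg

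Members also differed in how they stood among their chromosomal neighbours, here the tested genes starting within 5 Mb. Around BCL2 there were 25 such genes, of which 4 were called up and 15 down (76.0%). Over all genes tested, 24.5% were called up and 22.0% down (46.4%). The median of the 25 neighbours was -1.39 on the log2 scale. All 25 lay below BCL2, as did 93.0% of all genes tested. Around BCL2L11 the median of 60 genes was -0.73. Of these, 58 lay below BCL2L11, as did 83.3% of all genes tested. BCL2L1, in contrast, lay among its neighbours, with -1.16 against a median of -1.20 over 69 genes. PMAIP1 lay below the median of -0.58 of its 36 neighbours, 14 of which were lower still, beside 13.6% of all genes tested. BIK lay below most of its 131 neighbours, whose median was 0.68. Of these neighbours, 15 were lower than BIK, beside 24.2% of all genes tested. These medians depend on the window, and within 2 Mb they were -2.19 around BCL2, -1.32 around BCL2L11 and -0.41 around PMAIP1, with -1.29 around BCL2L1 and 0.72 around BIK.

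**Figure D5:**
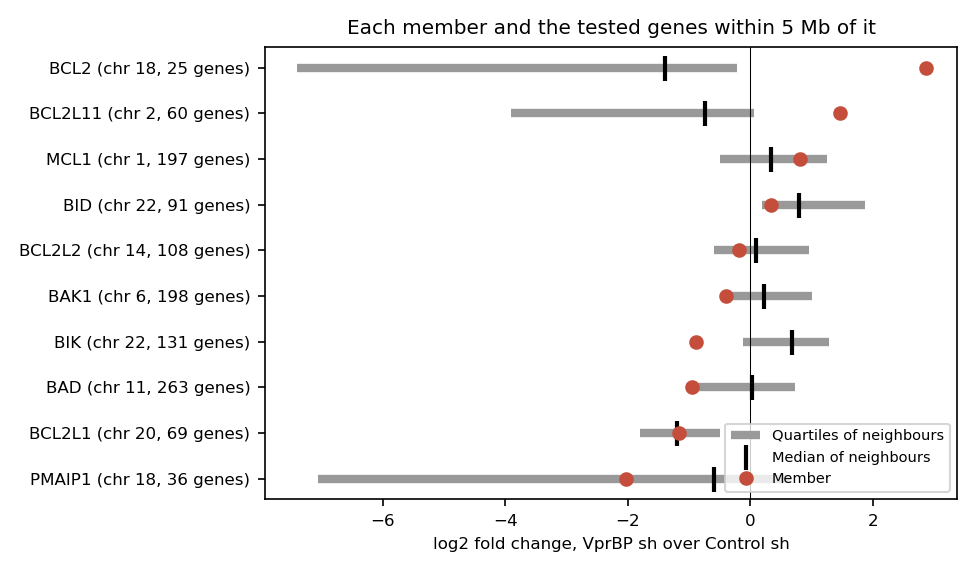
Log2 fold change of VprBP sh over Control sh (horizontal axis) of each BCL2 family gene (points) beside the median (tick) and quartiles (bar) of the tested genes within 5 Mb. BCL2 and BCL2L11 lie right of their neighbours' quartiles and BIK left of them, and BCL2L1 lies on its neighbours' median.

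Across the 6 samples, the genes most like BCL2 in log2(normalized counts + 1), among the 12133 genes averaging 100 normalized counts or more, were ENSG00000261578 (Pearson's r = 0.9995), NCOA1 (0.9995) and NPTXR (0.9994). The genes most like PMAIP1 were NEDD9 (0.9990), LTB (0.9987) and SHC1 (0.9987). As the 6 samples form 2 groups, 2911 other genes had an r above 0.95 with BCL2 and 2876 with PMAIP1, and these correlations describe mostly the step between the groups.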

How the data were processed

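RNA-seq was analysed for 3 Control sh and 3 VprBP sh samples, grouped by the titles in the labels. Single-end reads were mapped with STAR (hg38) and assigned to genes by the authors in Partek Flow. The deposited values are estimated counts, neither normalized nor pooled, of which 59.4% are whole numbers. The table of 21494 genes has sums of at least 10 over the samples. The design assumed counts, so the estimated counts were rounded before testing.

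Tests used edgeR 4.0.16 in R 4.3.3 (quasi-likelihood, upper quartile factors at quantile 0.75, filterByExpr with a minimum count of 10, no replicate block), in place of the Partek Gene Specific Algorithm used in the study. P-values were adjusted by Benjamini-Hochberg over all genes tested, and a gene was called at adjusted p under 0.05 and fold over 2; rose and fell refer to adjusted p under 0.05. Standard errors (SE) were obtained as the absolute log2 fold change over the root of the F statistic. Counts were normalized to the mean effective library. The depth of each sample set a floor of 3 counts, equal to 2.30 to 3.48 normalized counts, which covers counting error only. Lists were described by counts and medians, without set tests. Exon lengths, overlaps and transcripts came from GENCODE 44, in which 9 of the 10 members have the coordinates of the table (1-based, last base included). The tests were checked on simulated counts in which few genes changed, as many up as down. As 46.4% of genes tested were called here, that simulation cannot check the scaling between samples.

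The members and lists were chosen with earlier results of these data known. The text names all members, DCAF1, up to 4 called list genes per direction that averaged 100 normalized counts or more in the higher group, markers as examples, and the 3 genes most like BCL2 and PMAIP1. The motifs, the BH3 core pattern with a methionine start and glycine taken first, and the genes overlapping members were chosen after the data were seen. Protein sequences were planned and not used here, and some called list genes are not reported here by name. Alternatives were TMM, library size alone, DESeq2 1.42.0, limma-voom (limma 3.58.1), other filters, no rounding, glmTreat, a replicate block, summed replicates 2 and 3, leaving out each sample, other lengths and other windows.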

Additional observations from a re-analysis of the deposited data

How the results depend on the processing

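The calls for BCL2, BCL2L11 and PMAIP1 held in all 16 alternatives, with log2 fold changes of 2.71 to 3.08, 1.34 to 1.68 and -2.15 to -1.81. The number of members called up was 2 in every alternative but library size alone (3, with MCL1). The number called down was 1 with library size alone and in the glmTreat test against a 2-fold change, where BCL2L1 was lost, and 4 with DESeq2, where BAD and BIK were added. It ranged from 1 to 3 when a sample was left out. Scaling shifted the centre of all tested genes (median 0.08 with upper quartile factors) to -0.01 under TMM, -0.04 under DESeq2 and 0.29 when only library size was used. BCL2L2 turned from -0.18 to 0.037 in the last of these. For DCAF1, library size alone gave -0.37 (adjusted p = 0.0851) and summed replicates -0.46 (adjusted p = 0.0842), both from edgeR. The glmTreat test against a 2-fold change could not call DCAF1, whose log2 fold change of -0.58 is under 2-fold. With the longest transcript as length, the share of BCL2 in the anti-apoptotic sum was 0.119% in Control sh and 0.812% in VprBP sh. Same-numbered samples did not deviate together (correlations -0.173, -0.0539 and -0.121 over 12133 genes), and 0 of 6 samples correlated best with their own number. The fit with a replicate block called 2 members up and 2 down, 9 at any fold and, in the other lists, 11 up and 14 down, with -0.60 for DCAF1 (adjusted p = 0.0274 from edgeR). Low counts limit BCL2 in Control sh and the untested genes of the lists. Among the other neighbour medians, that of MCL1 moved from 0.34 within 5 Mb to 0.48 within 2 Mb and that of BID from 0.81 to 1.54.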

Other observations

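Some genes of the lists were too low to be tested. BCL2L10, an anti-apoptotic family gene, had 23, 9 and 25 counts in the Control sh libraries and 0, 0 and 1 in the VprBP sh libraries. BCL2L15 had 0 counts in all 3 Control sh samples and 5, 14 and 11 in VprBP sh. BIRC7, known as an inhibitor of apoptosis in melanoma, had 4, 2 and 6 counts in Control sh and 0 in all 3 VprBP sh samples. TNFRSF10C had 1 to 5 counts in every sample. BCL2A1, a family gene known as a target of MITF, had no row under this name in the count table.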
